A study of Mus musculus with 4 samples.

Results

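The genes described here are 40 genes of the cell cycle and of cell division, out of 16342 genes listed in any of the deposited count tables. They were chosen by name. The set holds 16 genes of mitosis, 10 genes of DNA replication, 8 cyclins, cyclin-dependent kinases (CDKs) and kinase inhibitors, and 6 chromatin and cytoskeleton genes that resting cells also express. All 40 had at least 1 molecule in the cells used, and 28 were listed in all 4 tables.

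The cells came from the corpus callosum, the largest white matter tract of the brain, of male C57BL/6 mice labelled as 13 weeks old. In the week 5 group (2 libraries) the mice had received cuprizone, a copper chelator that kills oligodendrocytes and strips myelin; in the week 0 group (2 libraries) they were not treated. Live nucleated cells positive for CD11b, an integrin chain of myeloid cells, were sorted, and the 3′ ends of their transcripts were read in droplets, with each molecule counted once by its unique molecular identifier (UMI). The labels do not say whether the libraries came from separate animals, so the p-values cover the spread between these libraries only, which may be of technical origin.

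Microglia, the resident macrophages of the brain, are long-lived cells that divide rarely in the healthy adult brain and can proliferate where tissue is damaged. D-type cyclins with Cdk4 or Cdk6 let a cell leave the resting state. E2F transcription factors then switch on the replication genes, and the mitosis genes follow later in the cycle. The inhibitors encoded by Cdkn1a (p21) and Cdkn1b (p27) bind the kinases and hold the cycle.

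The deposited tables, of 1000 barcodes each, summed to 6559032 and 3322818 UMIs at week 5 (replicates 1 and 2) and to 2415001 and 4631622 at week 0. After filtering, 962 and 914 cells were used at week 5 and 926 and 905 at week 0. The median used cell held 6133.5 and 2495.5 UMIs at week 5, against 1527 and 3919 at week 0. The most genes seen in any cell also differed between the tables, with 3999 and 2996 at week 5 and 2999 and 6615 at week 0. Depth therefore differed within each group as well as between groups, and 6 barcodes occurred in more than 1 library, in 12 cells. Microglia-like clusters, named from marker genes such as P2ry12, Tmem119 and Cx3cr1, held 76.1% and 89.3% of the week 5 cells and 97.4% and 99.2% of the week 0 cells. A cluster led by Spp1, Fabp5 and Apoc4 had the monocyte marker Fn1 and no microglia marker among its 10 leading genes and was left unnamed; its microglia markers summed to 10060 CPM (counts scaled to the total UMIs) and its monocyte markers to 253.5 CPM. It held 179 and 37 week 5 cells and no week 0 cell.

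Promoters of dividing-cell genes often carry short elements that bring in cell cycle transcription factors. The last 150 bases before the start site are shown for 5 of the mitosis genes whose levels in each library are given below, and for the replication gene Mcm6 to set beside them (RefSeq starts, build GRCm38.p6, each 5′ to 3′ on the strand of the gene). Capitals mark CCAAT, bound by NF-Y, TTTGAA, known as the cell cycle homology region, and TTGGCGC, an E2F-type element, on either strand.
Mki67, chr7:135716380-135716529, minus strand: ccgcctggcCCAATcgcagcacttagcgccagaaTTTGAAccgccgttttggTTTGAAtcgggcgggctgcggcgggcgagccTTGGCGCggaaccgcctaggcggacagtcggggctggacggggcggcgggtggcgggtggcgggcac
Cdk1, chr10:69352913-69353062, minus strand: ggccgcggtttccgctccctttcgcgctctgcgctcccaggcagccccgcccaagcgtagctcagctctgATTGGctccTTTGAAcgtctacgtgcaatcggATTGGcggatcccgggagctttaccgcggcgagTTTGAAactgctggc
Cenpf, chr1:189688087-189688236, minus strand: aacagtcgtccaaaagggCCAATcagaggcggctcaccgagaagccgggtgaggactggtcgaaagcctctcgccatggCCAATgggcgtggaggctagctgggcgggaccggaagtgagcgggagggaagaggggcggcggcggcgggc
Cenpe, chr3:135212413-135212562, plus strand: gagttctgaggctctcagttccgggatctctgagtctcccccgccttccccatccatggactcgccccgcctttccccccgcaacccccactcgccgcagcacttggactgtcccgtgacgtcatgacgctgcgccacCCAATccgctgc
Cenpa, chr5:30666736-30666885, plus strand: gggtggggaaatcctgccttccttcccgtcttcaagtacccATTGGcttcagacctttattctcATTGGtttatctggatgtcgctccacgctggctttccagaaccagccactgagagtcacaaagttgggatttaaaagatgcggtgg
Mcm6, chr1:128359706-128359855, minus strand: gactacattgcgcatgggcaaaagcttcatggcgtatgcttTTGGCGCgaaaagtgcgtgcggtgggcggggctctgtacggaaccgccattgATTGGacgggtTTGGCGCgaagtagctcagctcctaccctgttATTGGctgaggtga
Mki67 and Cdk1 each held TTTGAA at 2 places in these windows. Cenpf, Cenpe and Cenpa held CCAAT alone, and Mcm6 held TTGGCGC at 2 places. A second E2F-type element, TTCCCGC, was searched for too and lies in none of these windows. Promoters were given for 33 of the 40 genes. Over the 250 bases before the start, CCAAT lay in 11 of 13 mitosis genes and 8 of 9 replication genes, against 37.5% of 27025 genes with a promoter. For TTTGAA the counts were 5 of 13 mitosis genes and 1 of 9 replication genes, against 18.3% of all. The counts for TTGGCGC were 3 of 13 and 2 of 9, against 2.31% of all, and those for TTCCCGC were 0 of 13 and 2 of 9, against 4.38%. On the opposite strand CCAAT reads ATTGG, which can share its last 4 letters with TTGGCGC. A match describes letters, not a bound site. The first bases after the start were found in GENCODE transcripts of Cdk1, Cenpf, Cenpe and Cenpa. They were not found in those of Mki67 and Mcm6, whose start sites were thus not matched there.

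Transcripts of mitosis genes were few at both times. The 16 mitosis genes together had 381 and 180 UMIs in the week 5 libraries, against 87 and 66 in the week 0 libraries. As a share of all UMIs this came to 58.8 and 55.2 CPM at week 5, against 37.0 and 14.9 CPM at week 0. Both week 5 values lay above both week 0 values. More UMIs were found at week 5 than at week 0 for 15 of the 16 genes, the exception being Ccna2, the S-phase and mitosis cyclin, with 4 against 5. These raw counts favour week 5, whose used cells held 6484047 and 3259863 UMIs, against 2353156 and 4442246 at week 0. The share of all genes with more UMIs at week 5 is not given. In the edgeR fit with no gene filter, which scales for library depth, 15 of the 16 had a log2 fold change above 0. Their median was 1.76, against 0.00495 over all genes. In these pooled sums, more cells with a transcript and more transcript per cell cannot be told apart.

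Mki67, whose product Ki-67 coats mitotic chromosomes and is the standard marker of cycling cells, was found at week 5 alone. It had 21 and 20 UMIs in the week 5 libraries and 0 in each week 0 library. Its level was 3.87 and 6.05 CPM at week 5 and 0 at week 0, a mean of 4.96 ± 1.54 CPM (SD, n = 2) against 0. With 3 UMIs over both week 0 libraries as the floor, Mki67 was at least 7.34-fold higher in the first week 5 library and at least 13.9-fold higher in the other. In a fit over summed counts of all cells, Mki67 rose at week 5 (edgeR quasi-likelihood test, adjusted p = 0.0204). The transcripts came from few cells, 8 and 4 of them, and 17 of the 20 UMIs in week 5 replicate 2 were in 1 cell. The adjusted p was 0.0583 without week 0 replicate 2.

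Mki67 was the only one of the 29 tested genes that passed the threshold (adjusted p under 0.05); by the same rule 302 of 11247 genes passed (2.69%), 274 upward (2.44%) and 28 downward (0.249%). The 29 genes that passed the filter on low counts were 7 mitosis genes, 9 replication genes, 7 cyclins, kinases and inhibitors and all 6 broadly expressed genes. The 11 that did not pass it were Ube2c, Nusap1, Ccnb1, Ccnb2, Ccna2, Tpx2, Aurkb, Plk1, Bub1, Rrm2 and Ccne1. The fitted log2 fold change, week 5 over week 0, was above 0 for 28 of the 29 and had a median of 0.52, against -0.01 over all genes tested. An unadjusted p under 0.05 was reached by 9 of them, against 13.7% of all genes. In 12 of the 29 both week 5 levels lay above both week 0 levels, against 21.0% of all genes, and in 1 both lay below, against 22.2%. The filter on low counts can be met by the libraries of 1 group alone. Mki67, with 0 UMIs at week 0, met it through week 5. For low genes the direction was therefore partly set by the filter, and these counts are given as a description.

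**Figure D1:**
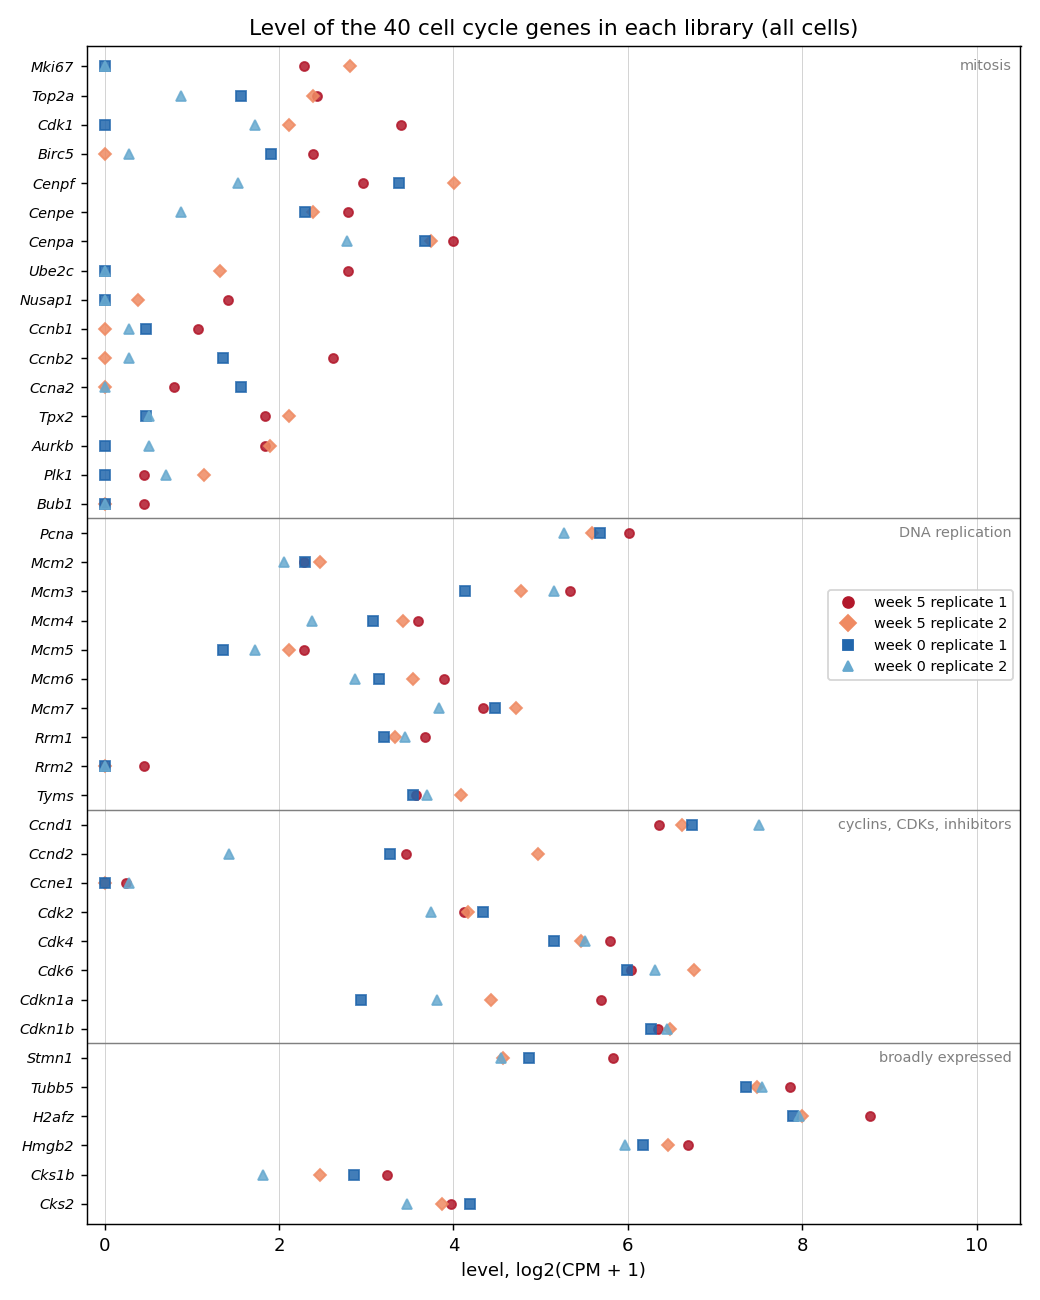
Level of each of the 40 genes in the 4 libraries, as log2(CPM + 1) over all cells used, with week 5 in reds and week 0 in blues and the genes grouped by role. Mki67 lies above 0 in both week 5 libraries and at 0 in both week 0 libraries, while most replication genes and kinases have interleaved points.

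The other mitosis genes stood higher at week 5 in several cases but did not pass the test. Cdk1, the kinase that drives entry into mitosis, had 52 and 11 UMIs at week 5 and 0 and 11 at week 0, or 9.58 and 3.33 CPM against 0 and 2.31 CPM. Its log2 fold change was 2.23 (SE 0.84, edgeR adjusted p = 0.253). The week 0 libraries differed from each other, but neither reached a week 5 value. Cdk1 passed without week 5 replicate 2 (log2 fold change 2.80, edgeR adjusted p = 0.0111) and without week 0 replicate 2 (adjusted p = 0.0155, with the remaining week 0 library at 0), and had a log2 fold change of 1.29 without week 5 replicate 1 and 1.51 without week 0 replicate 1. Cenpf and Cenpe, which act at the kinetochore where chromosomes meet the spindle, had log2 fold changes of 1.06 (SE 0.65) and 1.28 (SE 0.69), with edgeR adjusted p-values of 0.566 and 0.481. Cenpf measured 6.81 and 15.1 CPM at week 5, against 9.41 and 1.89 CPM at week 0, so that its groups overlapped. Its log2 fold change was 0.19 without week 0 replicate 2 and 0.43 without week 5 replicate 2, against 1.55 without week 5 replicate 1 and 2.48 without week 0 replicate 1, where it passed (edgeR adjusted p = 0.0106). Cenpe measured 5.89 and 4.23 CPM against 3.92 and 0.841 CPM, without overlap, and its log2 fold change was 0.39 without week 0 replicate 2 and 2.56 without week 0 replicate 1. Cenpa, the histone variant that marks the centromere, measured 14.9 and 12.4 CPM at week 5, against 11.8 and 5.89 CPM at week 0 (log2 fold change 0.70, SE 0.37, edgeR adjusted p = 0.474; 0.23 without week 0 replicate 2 and 1.21 without week 0 replicate 1).

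Top2a, the topoisomerase that untangles chromosomes, had 24 and 14 UMIs at week 5, against 5 and 4 at week 0 (log2 fold change 1.73, SE 0.65, edgeR adjusted p = 0.248). Birc5, which encodes survivin, had 23 UMIs in week 5 replicate 1 and 0 in replicate 2, against 7 and 1 at week 0, so that its groups overlapped (log2 fold change 0.95, SE 1.27; -0.24 without week 0 replicate 2 and 3.29 without week 0 replicate 1).

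Among mitosis genes too low to test, Ube2c had the most week 5 molecules. This ubiquitin-conjugating enzyme of the anaphase-promoting complex had 32 and 5 UMIs at week 5 and none at week 0, which by the same floor is at least 11.2-fold higher in the first library and at least 3.47-fold in the other. Nusap1, a spindle protein, had 9 and 1 UMIs at week 5 and none at week 0. Ccnb2, which encodes cyclin B2, had 28 UMIs in week 5 replicate 1 and 0 in replicate 2, against 4 and 1 at week 0, with overlapping groups. Tpx2, which helps to build the spindle, had 14 and 11 UMIs at week 5, against 1 and 2 at week 0. The remaining Ccnb1, Ccna2, Aurkb, Plk1 and Bub1 had at most 14 UMIs in any library.

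Cells with several mitosis genes at once were few and came mainly from 1 library. A cell was taken to have a mitotic profile if it held a UMI of 3 or more of the 16 mitosis genes. There were 12 such cells of 962 in week 5 replicate 1 (1.25%, Clopper-Pearson 95% interval 0.646% to 2.17%) and 2 of 914 in week 5 replicate 2 (0.219%, 0.0265% to 0.788%). At week 0 there was 1 of 926 in replicate 1 (0.108%, 0.00273% to 0.600%) and 0 of 905 in replicate 2 (interval 0% to 0.407%; 3 cells of the total, the limit that a count of 0 allows, would be 0.331%). Neither week 0 share reached a week 5 share, and the exact two-sided permutation test gave p = 0.333, the smallest that 2 against 2 libraries allow. Week 5 replicate 1 sets the size: the difference of mean shares was 0.679 percentage points with it and 0.165 without it. No mitotic-profile cell was marked as a doublet, the highest doublet score among them being 0.121.

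Detection of this kind depends on depth, and the mitotic-profile cells were deep. Their median was 13668.5 UMIs in week 5 replicate 1, against 6133.5 for all its cells. With every cell thinned to 1000 UMIs and shallower cells left out, 2 of 901 and 1 of 809 cells remained at week 5, against 1 of 781 and 0 of 835 at week 0 (exact permutation p = 0.667). With all libraries held to at most 2996 genes per cell, 4 and 2 cells remained at week 5, against 1 and 0 at week 0. Of the 12 cells in week 5 replicate 1, 8 were above that limit. Several cells lay near the cut: 5 of the 15 held exactly 3 genes, and 22 and 1 cells at week 5 and 1 and 3 cells at week 0 held exactly 2.

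**Figure D2:**
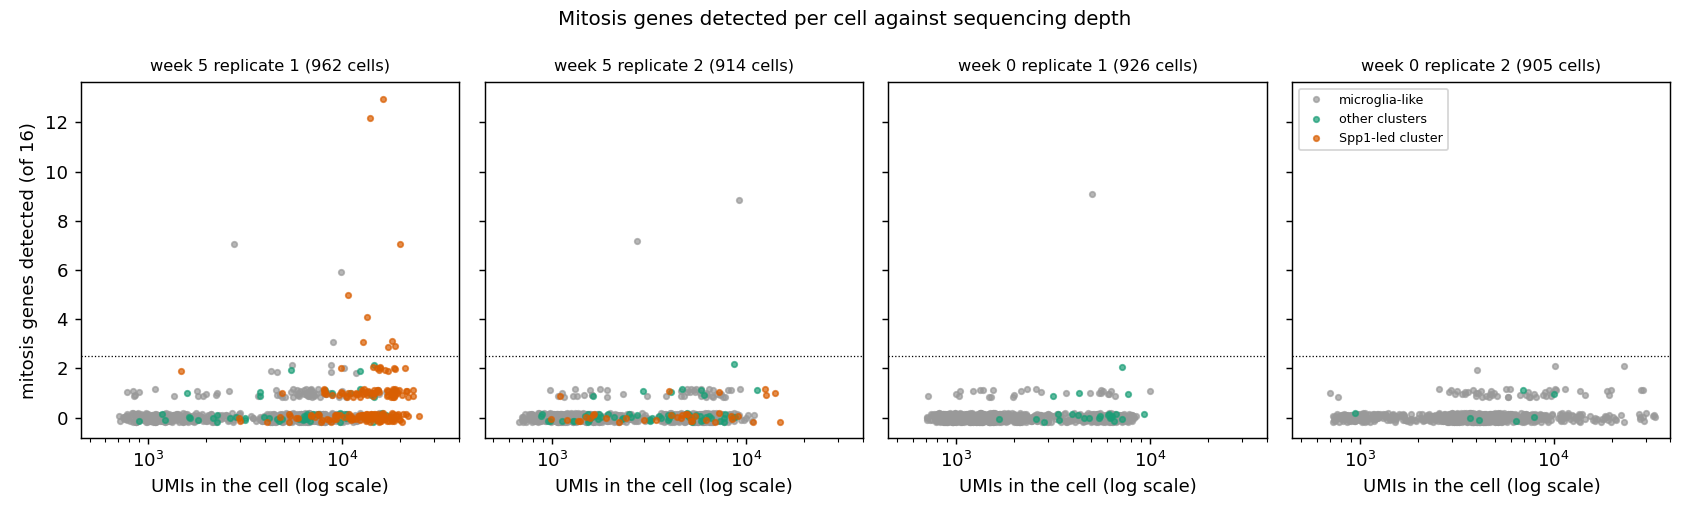
Number of the 16 mitosis genes detected in each cell (vertical axis, with small random shifts) against the UMIs in the cell (horizontal axis, log scale), 1 panel per library. Points above the dotted line are the 15 mitotic-profile cells, 12 of them in week 5 replicate 1, and orange points belong to the Spp1-led cluster.

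Counting any 3 of all 40 genes gave no such split. This held for 66.8% and 44.4% of the cells at week 5, against 28.3% and 60.6% at week 0, which follows the order of the libraries' median UMIs. After thinning to 1000 UMIs the shares were 8.77% and 6.67% at week 5, against 4.87% and 9.46% at week 0, and the groups still overlapped. The 40 genes include ones that many resting cells express: Tubb5 alone was found in 537 and 341 cells at week 5, against 263 and 448 at week 0.

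The mitotic-profile cells held a large share of all mitosis molecules. They held 177 of 381 and 108 of 180 mitosis UMIs of the week 5 libraries, against 46 of 87 and 0 of 66 of those of the week 0 libraries. The genes were unlike each other in this. At week 5 they held 36 of 41 Mki67 UMIs, 29 of 37 of Ube2c, 24 of 28 of Ccnb2 and 53 of 87 of Cenpf. By contrast they held 33 of 122 UMIs of Cenpa, 3 of 63 of Cdk1 and 2 of 23 of Aurkb, the kinase of the chromosomal passenger complex. The Cdk1 UMIs were spread over 46 and 10 cells at week 5, with at most 3 in a cell. When the 15 cells were left out, Mki67 no longer passed the filter on low counts. Of the 40 genes 25 were tested and 0 were called by edgeR, with 5 at an unadjusted p under 0.05. Over all genes of that fit 293 of 11229 were called and 1532 had an unadjusted p under 0.05. Since the cells were chosen by the mitosis genes, both their shares of the mitosis UMIs and the loss of the Mki67 call follow in part from the choice.

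**Figure D3:**
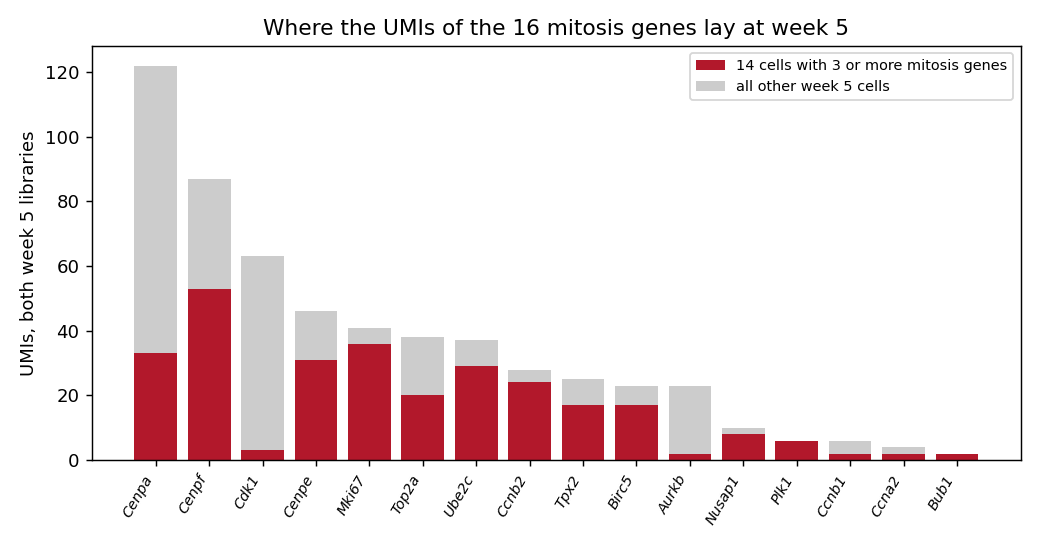
UMIs of each mitosis gene over both week 5 libraries (bar height), split into those in the 14 mitotic-profile cells of week 5 (red) and those in all other week 5 cells (grey). Red fills most of the bars of Mki67, Ube2c and Ccnb2 and little of those of Cdk1 and Aurkb. The cells were chosen by these same genes.

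The mitotic-profile cells lay in the Spp1-led cluster and in several microglia-like clusters. Clusters were built without cell cycle genes, so these genes could not place a cell. In week 5 replicate 1, 9 of the 12 mitotic-profile cells lay in the Spp1-led cluster, which held 179 of its 962 cells (18.6%), 2 lay in a microglia-like cluster led by the interferon-inducible gene Rtp4 and 1 in a microglia-like cluster led by the chemokine gene Ccl4. In week 5 replicate 2 none of the 37 cells of the Spp1-led cluster had the profile. Those 37 cells and 2 mitotic-profile cells are too few to compare the libraries, and no test was made. The 2 cells lay in the Rtp4-led cluster and in a microglia-like cluster led by Insyn2b. The week 0 cell lay in a microglia-like cluster led by the histone gene Hist1h2ac. At clustering resolutions of 0.5 and 2 the same number of cells, 9, lay in the cluster led by Spp1. The Spp1-led cluster was also the deepest group, with a median of 13316 UMIs, and 39.8% of its cells had a UMI of at least 1 mitosis gene, against 6.00% of microglia-like cells at a median of 3177.5 UMIs. Depth moved with the cluster, and its part in these shares was not tested.

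Within week 5 replicate 1 the mitotic-profile cells carried slightly more of the damage-associated list than the other cells and less of the homeostatic one. A list of 18 damage-associated genes, with Spp1, Apoe, Lpl and Trem2 among them, summed to 74453 CPM in the 12 cells, against 71707 CPM in the other 950. Spp1 and Apoe themselves went the other way. Spp1 was at 615 CPM (500 to 747) in the 12 cells, against 1149 CPM (1123 to 1176), and Apoe at 39036 CPM against 47054 CPM. The sum therefore does not speak for each gene of the list. A list of 14 homeostatic genes summed to 14522 CPM against 21261 CPM. P2ry12, the purinergic receptor of resting microglia, stood at 209 CPM (exact Poisson 95% interval 145 to 292) against 1300 CPM (1272 to 1328). With 1 library there is no test of these differences, and the intervals cover counting error only.

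Inside the Spp1-led cluster the order differed. There the damage-associated list summed to 79307 CPM in the 9 mitotic-profile cells, against 125165 CPM in the other 170. The homeostatic list summed to 14240 CPM (13625 to 14877) against 12143 CPM (12003 to 12285), and P2ry12 was at 241 CPM (167 to 337) against 215 CPM (197 to 235). Spp1, the secreted protein osteopontin, was at 602 against 2886 CPM there, and the lipid carrier Apoe at 42494 against 86999 CPM. The lower homeostatic sum of the 12 cells was thus not seen within the cluster that held 9 of them. It was seen in the 3 mitotic-profile cells of other clusters. They held 16364 CPM of the homeostatic list (14701 to 18163), against 26693 CPM (26532 to 26855) in the other cells of those clusters. Their P2ry12 was at 0 CPM (0 to 171), against 1946 CPM (1903 to 1990).

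The 2 mitotic-profile cells of week 5 replicate 2 were low in both lists. They held 8890 CPM of the damage-associated list, against 38096 CPM in the other 912 cells of that library, and 18200 CPM of the homeostatic list, against 25752 CPM. They held 1510 CPM of P2ry12 (895 to 2386), against 1692 CPM in the rest, and 419 CPM of Apoe (136 to 979), against 22783 CPM. The week 0 cell held 14476 CPM of the damage-associated list, against 14538 CPM in the other 925 cells of its library, and 38271 CPM of the homeostatic list, against 34995 CPM. Its P2ry12 was at 793 CPM (216 to 2031), against 3264 CPM.

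Markers of other cell types were also summed in these cells. Microglia markers came to 11972 CPM in the 12 cells of week 5 replicate 1, against 17429 CPM in the other 950, to 13252 CPM in the 2 cells of replicate 2, against 20952 CPM in the rest, and to 31132 CPM in the week 0 cell, against 28691 CPM. Monocyte markers were higher in the mitotic-profile cells of week 5 replicate 1, at 350 CPM (265 to 454) against 170 CPM (160 to 180), and inside the Spp1-led cluster at 383 CPM (287 to 499) against 265 CPM (244 to 286). Of those monocyte UMIs in the 12 cells 52 of 57 were of Fn1, which also leads the Spp1-led cluster; 4 of the 10 monocyte markers had a UMI there, and Ly6c2 and Ccr2 were at 0. In the 2 cells of week 5 replicate 2 monocyte markers came to 335 CPM (91.4 to 859), against 89.0 CPM (79.0 to 99.9). Markers of T and NK cells were at 0 UMIs in all 15 cells. The part of these markers in the results was not tested.

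Genes of the later cell cycle that took no part in choosing these cells summed to more in them as well. In week 5 replicate 1 a list of 38 other mitosis genes summed to 1291 CPM (1122 to 1477) in the 12 cells, against 568 CPM (549 to 586) in the rest. Of the 210 UMIs behind the sum 64 were in 1 cell, and without that cell the sum was 997 CPM. Of the 38, 35 had a UMI in the 12 cells and 16 had 5 or more. The 7 of those that were also at least 10-fold higher there were Hmmr, Cdc20, Ckap2l, Cdca3, Cdca8, Ncapd2 and Kif20b. The others of the 16 ranged from 0.713-fold (Ctcf) to 3.64-fold (Tubb4b). The share of all genes that met both limits is not given. Cdc20, the activator of the anaphase-promoting complex, had 7 UMIs in the 12 cells and 1 in the other 950. Hmmr, a spindle protein, had 8 UMIs and 0. Few cells carried them: Hmmr was found in 2 of the 12 cells, Cdc20, Ckap2l, Ncapd2 and Kif20b in 3 each, Cdca3 in 4 and Cdca8 in 5. The matching list of 35 replication genes summed to 442 CPM (346 to 557), against 357 CPM (342 to 372). None of its genes met both limits, but only 2 of the 35 had 5 or more UMIs in the 12 cells. The 10 replication genes of the main set summed to 172 CPM (114 to 249) in the 12 cells, against 148 CPM (139 to 158). Most UMIs of the 12 cells were those of the 9 in the Spp1-led cluster. There the 35 genes were at 312 CPM (227 to 418), against 269 CPM (249 to 291). In the 3 cells of other clusters they were at 1298 CPM (862 to 1876), on 28 UMIs, against 408 CPM (389 to 429). The 10 genes were at 464 CPM (222 to 853) in those 3 cells, against 164 CPM (151 to 177), on 10 UMIs, most of them in 1 cell.

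Several broadly expressed genes were also at higher summed levels in these cells. Stmn1, which takes microtubules apart, had 596 CPM (483 to 727) in the 12 cells, against 32.4 CPM (28.1 to 37.2) in the other 950, and was found in 10 of the 12. H2afz, the histone variant H2A.Z, had 1315 CPM (1145 to 1504), against 341 CPM (327 to 356). Tubb5, a beta-tubulin, had 442 CPM against 187 CPM. H2afz was found in 11 and Tubb5 in all 12 cells, and without the cell with the most UMIs of the gene the levels were 499 CPM for Stmn1, 1079 CPM for H2afz and 371 CPM for Tubb5. Cks2, a small partner of the CDKs, had 98.3 CPM (56.2 to 160) against 10.1 CPM (7.80 to 12.9), with 14 of its 16 UMIs in 2 cells and 8 cells at 0. Hmgb2, a chromatin protein, had 246 against 81.2 CPM, but 24 of its 40 UMIs were in 1 cell and 33 in 2, 5 of the 12 cells had none, and without the 1 cell its level was 109 CPM. The 2 cells of week 5 replicate 2 held 1594 CPM of Stmn1 (959 to 2489), against 17.2 CPM in the rest of that library. All 19 Stmn1 UMIs behind this value were in 1 of them, and the other had 0. The single week 0 cell held 2181 CPM (1089 to 3903), against 26.0 CPM.

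Over all cells, none of the broadly expressed genes was called. H2afz measured 436 and 255 CPM at week 5, against 236 and 248 CPM at week 0 (log2 fold change 0.52, SE 0.30, edgeR adjusted p = 0.524). Hmgb2 measured 102 and 86.8 CPM against 71.0 and 61.6 CPM (log2 fold change 0.52, SE 0.21, adjusted p = 0.292). Both had week 5 levels above both week 0 levels. Stmn1 and Tubb5 had overlapping groups, with log2 fold changes of 0.67 (SE 0.37) and 0.23 (SE 0.24). Stmn1 was at 55.6 and 22.7 CPM at week 5, against 28.2 and 22.3 CPM at week 0. Without week 5 replicate 1 its log2 fold change was -0.13, and that of Tubb5 was -0.01 when libraries were scaled by their size alone. Without week 5 replicate 1 the log2 fold change of H2afz was 0.08, and H2afz, Hmgb2 and Stmn1 passed without week 5 replicate 2. Cks1b and Cks2 had log2 fold changes of 0.68 (SE 0.55) and 0.09 (SE 0.32); without week 0 replicate 2 that of Cks2 was -0.28.

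Replication genes were detected at both times and were not called at week 5. Pcna, the sliding clamp of DNA polymerases, measured 63.4 and 47.1 CPM at week 5, against 50.2 and 37.4 CPM at week 0, with overlapping groups (log2 fold change 0.35, SE 0.24, edgeR adjusted p = 0.620). Among the subunits of the MCM helicase, which unwinds DNA at the fork, Mcm6 had the lowest p. It measured 13.8 and 10.6 CPM at week 5, against 7.84 and 6.31 CPM at week 0, without overlap (log2 fold change 0.82, SE 0.34, edgeR adjusted p = 0.314). Mcm4 and Mcm5 also had both week 5 levels above both week 0 levels, with log2 fold changes of 0.89 (SE 0.40) and 0.84 (SE 0.58). Mcm3 measured 39.2 and 26.3 CPM against 16.5 and 34.7 CPM, and its log2 fold change of 0.33 (SE 0.34) turned to -0.08 without week 0 replicate 1 and to -0.00 without week 5 replicate 1. Mcm7 measured 19.2 and 25.4 CPM against 21.2 and 13.3 CPM (log2 fold change 0.39, SE 0.30).

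The enzymes that supply DNA precursors differed less. Tyms, thymidylate synthase, measured 10.9 and 16.02 CPM at week 5, against 10.6 and 11.99 CPM at week 0 (log2 fold change 0.22, SE 0.31, edgeR adjusted p = 0.844; -0.04 with thinned cells and -0.02 without week 5 replicate 2). Rrm1, the large subunit of ribonucleotide reductase, had a log2 fold change of 0.20 (SE 0.33; -0.0071 without week 5 replicate 1). Rrm2, its S-phase subunit, had 2 UMIs in week 5 replicate 1 and 0 in each of the other 3 libraries. Of 500 Pcna UMIs at week 5, 8 were in the 14 mitotic-profile cells, which held 1.79% of all week 5 UMIs (174643 of 9743910).

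**Figure D4:**
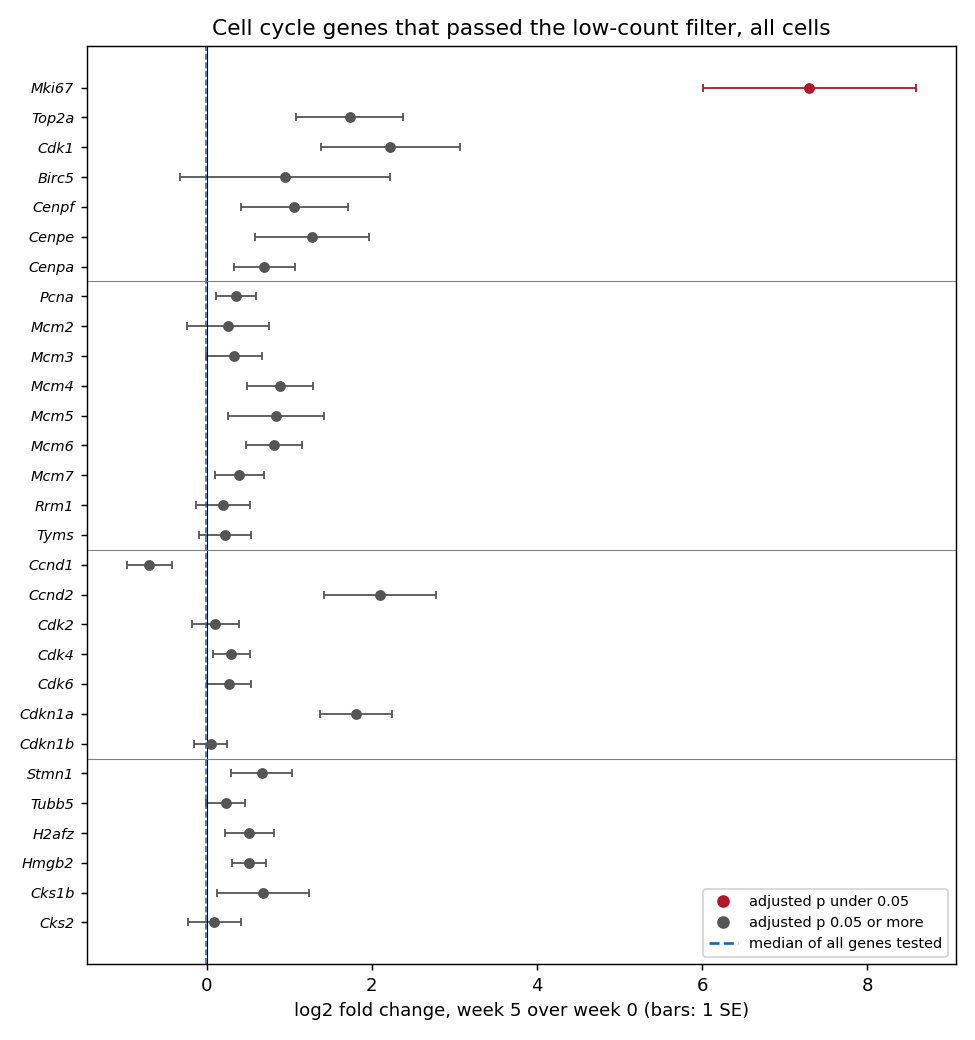
Fitted log2 fold change, week 5 over week 0, with 1 standard error to each side, for the 29 genes that passed the filter on low counts, grouped by role. Mki67 (red) is the one gene past the threshold, and its fitted value is no bound on its fold since week 0 held 0 UMIs; Ccnd1 is the one gene below 0.

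Among the regulators the inhibitor gene Cdkn1a had higher levels at week 5 and the cyclin gene Ccnd1 lower ones. Cdkn1a, the p53 target p21, had 274 and 68 UMIs at week 5 in 93 and 48 cells, against 17 and 62 UMIs at week 0 in 14 and 39 cells. Its level was 50.5 and 20.6 CPM at week 5, against 6.67 and 13.0 CPM at week 0, a mean of 35.5 ± 21.2 CPM against 9.85 ± 4.50 CPM (SD, n = 2 each). Over all cells its log2 fold change of 1.81 (SE 0.43) missed the threshold (edgeR adjusted p = 0.0636). Over microglia-like cells alone it passed, with a log2 fold change of 1.39 (SE 0.35, edgeR adjusted p = 0.0407), as the only one of 24 tested genes, where 346 of 10877 genes passed (3.18%), 302 of them upward (2.78%) and 44 downward (0.405%). Without the Spp1-led cluster its log2 fold change was 1.46 (SE 0.35, adjusted p = 0.0620). Scaled by library size alone it passed over all cells too (adjusted p = 0.0216). The call rests on week 5 replicate 1. Without that library the log2 fold change was 1.01 over all cells (adjusted p = 0.219) and 0.85 over microglia-like cells (adjusted p = 0.473). It was 1.09 over microglia-like cells at clustering resolution 2 (adjusted p = 0.102) and 1.21 over all cells thinned to 1000 UMIs (adjusted p = 0.327). In the library with the most, 1 cell held 45 of its 274 UMIs.

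Ccnd1, cyclin D1, measured 80.7 and 97.6 CPM at week 5, against 105 and 181 CPM at week 0, and was the one gene of the 29 with both week 5 levels below both week 0 levels. Its log2 fold change was -0.69 (SE 0.28, edgeR adjusted p = 0.285), and -0.24 without week 0 replicate 2. Ccnd2, cyclin D2, measured 9.95 and 30.2 CPM at week 5, against 8.63 and 1.68 CPM at week 0 (log2 fold change 2.10, SE 0.68, adjusted p = 0.174). It passed without week 0 replicate 1 (3.51, edgeR adjusted p = 1.18e-05) and without week 5 replicate 1 (2.73, adjusted p = 0.000144), and was at 1.12 without week 5 replicate 2 and 1.18 without week 0 replicate 2. Its molecules were mostly not in microglia-like cells. In week 5 replicate 2, 69 of 100 UMIs lay in 17 cells of an unnamed cluster led by S100a6. Its leading genes held the T and NK cell markers Nkg7 and Cd3g and the monocyte markers S100a4 and Plac8. In week 5 replicate 1, 36 of 54 lay in 15 choroid plexus- or ependyma-like cells led by Ttr. In microglia-like cells Ccnd2 was at 1.49 and 8.55 CPM at week 5, against 1.30 and 0.883 CPM at week 0, too low to be tested. The part of these other cells in the all-cell difference was not tested.

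The kinases and p27 differed little. Cdk4 and Cdk6, the partners of the D-type cyclins, had log2 fold changes of 0.30 (SE 0.23) and 0.27 (SE 0.26). Cdk6 measured 64.8 and 107 CPM at week 5, against 62.4 and 78.4 CPM at week 0, and its log2 fold change turned to -0.08 without week 5 replicate 2. Cdkn1b, p27, measured 80.3 and 88.3 CPM against 75.7 and 86.6 CPM, a log2 fold change of 0.05 (SE 0.20) that turned to -0.16 when scaled by library size alone and to -0.05 without week 0 replicate 1. Cdk2 had a log2 fold change of 0.11 (SE 0.29; -0.20 without week 0 replicate 2), and Ccne1, cyclin E1, had 1 UMI at each time.

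Cdkn1a and Ccnd1 also varied between clusters at week 5. In the Ccl4-led cluster Cdkn1a stood at 167 and 112 CPM of total UMIs in week 5 replicates 1 and 2, and in a microglia-like cluster led by Cxcl10, an interferon-induced chemokine, at 109 and 90.5 CPM. In the Rtp4-led cluster it stood at 16.7 and 17.1 CPM. The Spp1-led cluster differed between the libraries, with 54.0 CPM in replicate 1 and 15.2 CPM in replicate 2. Ccnd1 was low in the Spp1-led cluster, at 31.99 and 5.07 CPM, against 173 and 142 CPM in the Ccl4-led cluster. Cdk6 stood at 24.8 and 10.1 CPM in the Spp1-led cluster, against 139 and 219 CPM in the Ccl4-led cluster. These are values of 2 libraries, given without a test.

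**Figure D5:**
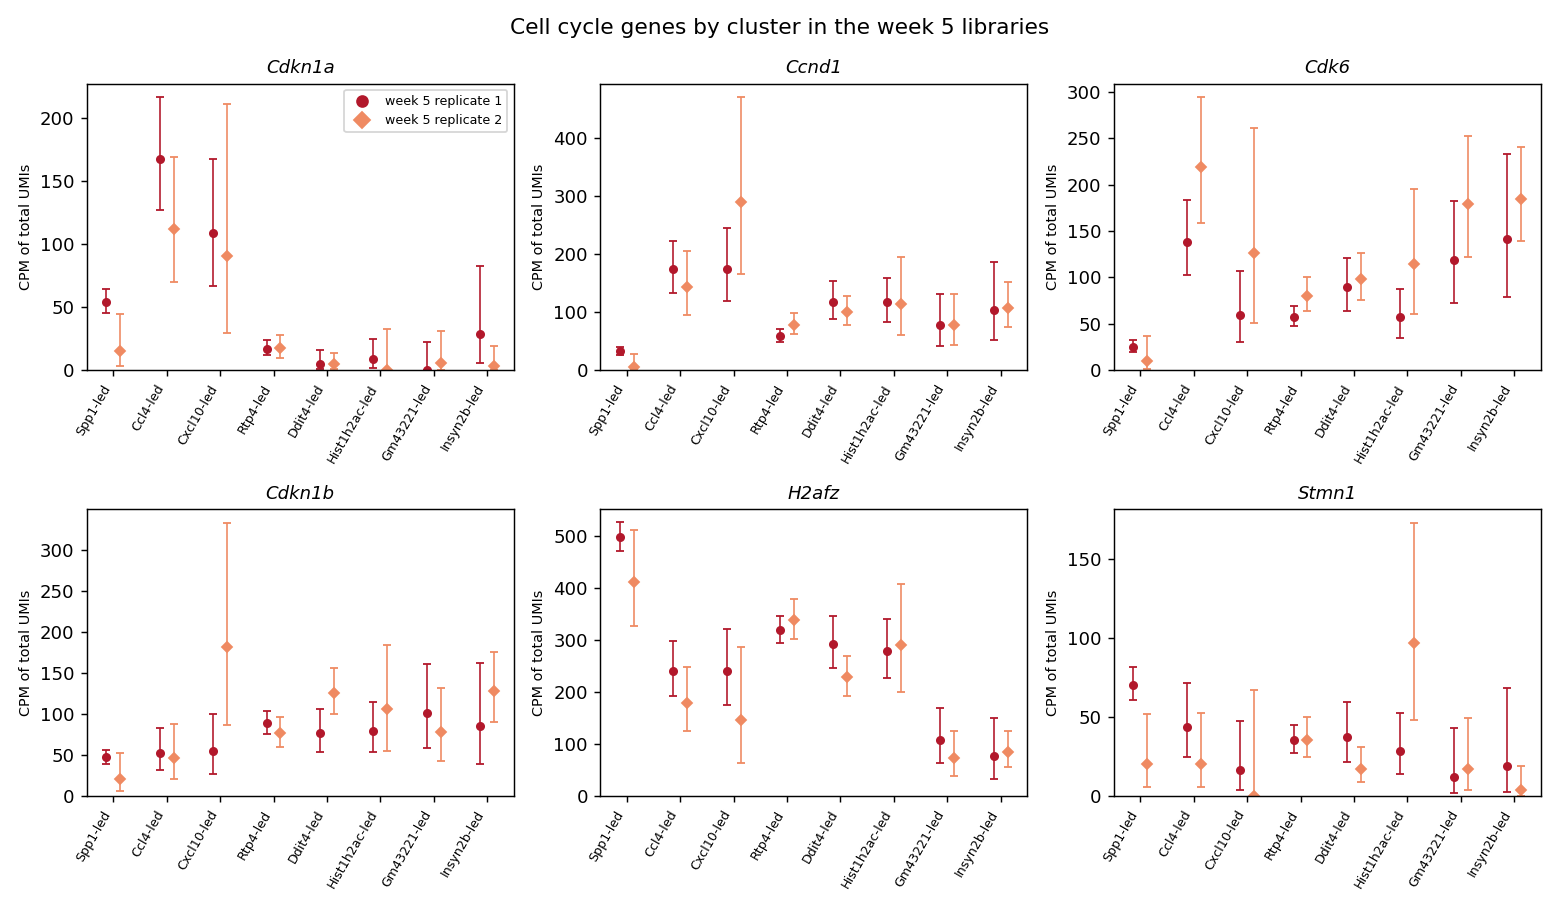
Level in CPM of total UMIs of 6 regulator and chromatin genes in the Spp1-led cluster and 7 microglia-like clusters of the week 5 libraries (circles replicate 1, diamonds replicate 2); bars are exact Poisson 95% intervals. Cdkn1a is high in the Ccl4-led and Cxcl10-led clusters, and Ccnd1 and Cdk6 are low in the Spp1-led cluster.

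In the mitotic-profile cells of week 5 replicate 1, Cdkn1a stood at 178 CPM (119 to 256), against 38.8 CPM (34.1 to 43.9) in the other cells, and 14 of its 29 UMIs there were in 1 cell. Ccnd1 was at 24.6 CPM (6.70 to 62.9), against 68.7 CPM (62.4 to 75.4). Inside the Spp1-led cluster it was at 21.3 CPM (4.38 to 62.1), against 32.6 CPM (25.7 to 40.8), with overlapping intervals. In the mitotic-profile cells of week 5 replicate 2 it was at 168 CPM (20.3 to 606), against 98.8 CPM (88.3 to 110). The week 0 cell held 0 Ccnd1 UMIs (0 to 731 CPM), against 115 CPM (101 to 129). The 2 mitotic-profile cells of week 5 replicate 2 held no Cdkn1a UMI among their 11923 UMIs. The interval of that count, 0 to 309 CPM, includes the 20.9 CPM of the other cells there, so it shows no difference. The week 0 cell held 2 Cdkn1a UMIs, or 397 CPM (48.0 to 1433), against 6.39 CPM in the other cells of its library.

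Other genes of the cycle, taken from lists that the 40 genes do not share, were rarely called. Of 38 other mitosis genes 18 were tested and 1 rose, of 35 other replication genes 22 were tested and none was called, and of 29 other regulators 22 were tested and none was called. Their median log2 fold changes were 0.18, 0.10 and -0.03, against -0.01 over all genes. Among the tested genes of these lists 4, 2 and 4 had an unadjusted p under 0.05 in the edgeR fit, against 13.7% of all genes. Of these, Hjurp, Lbr, Cdca7 and E2f3 were lower at week 5 and the others higher. The gene that rose was Gas2l3, which links actin to microtubules and acts in cytokinesis. It measured 40.7 and 23.3 CPM at week 5, against 2.35 and 3.78 CPM at week 0 (log2 fold change 3.31, SE 0.39, edgeR adjusted p = 0.00219). Its molecules were not those of the mitotic-profile cells, which held 11 of its 221 UMIs in week 5 replicate 1, and without the 15 cells its log2 fold change was 3.28 (SE 0.38, adjusted p = 0.00256). E2f1, a transcription factor of the replication genes, had 18 and 12 UMIs at week 5, against 1 and 2 at week 0 (log2 fold change 2.98, SE 0.79, edgeR adjusted p = 0.0911). Cdca7, of the replication list, had a lower adjusted p and went the other way. It measured 15.3 and 17.5 CPM at week 5, against 27.4 and 34.7 CPM at week 0 (log2 fold change -0.94, SE 0.24, edgeR adjusted p = 0.0810).

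Leaving out the Spp1-led cluster, 0 of 26 tested genes of the 40 were called by edgeR, with 6 at an unadjusted p under 0.05. Over all genes of that fit 248 of 11180 were called and 1288 had an unadjusted p under 0.05. Mki67 was too low to test there. With microglia-like cells and the Spp1-led cluster together, Mki67 passed (adjusted p = 0.00860). With the common limit of 2996 genes per cell, Mki67 did not pass the filter on low counts and was not tested. Ccnd2 was called there (log2 fold change 2.26, edgeR adjusted p = 0.0404). In microglia-like cells alone Mki67 was also too low to test, at 2.38 and 6.41 CPM at week 5 and 0 at week 0. The names of genes past the threshold thus depended on which cells and libraries entered, for Mki67 in part through the filter. By DESeq2, 2 genes were called (Mki67 and Cdkn1a).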

How the data were processed

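The authors deposited, for each barcode, UMI counts per gene as whole numbers without normalization, as the values show. The submitters' processing notes name Cell Ranger 3.0.0, STAR, Seurat 4 and build mm10 without their roles. The sources used here do not say how the 1000 barcodes and the genes of each table were picked; a gene that a table does not list was taken as 0. The genes and the lists were chosen with earlier results of these data known.

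Cells were kept from 500 genes upward and up to 10% mitochondrial UMIs (272 of 4000 removed), and scrublet marked 21 of 3728 as doublets (0.563%), leaving 3707. They were scaled to 10000 UMIs, log-transformed and clustered (scanpy 1.11.5, Leiden, resolution 1, 30 components, 2000 variable genes, 15 neighbours) without 142 cell cycle genes. A cluster was called microglia-like where no other class had more markers among its 10 leading genes and the summed microglia markers reached 10-fold the highest such sum among the remaining classes. It took another class's name from 2 or more leading markers, and stayed unnamed where classes tied or where another class had 1 such marker and microglia none.

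Counts were summed per library and tested with edgeR 4.0.16 (R 4.3.3; quasi-likelihood, TMM, its filter on low counts, Benjamini-Hochberg over all genes, threshold 0.05). CPM uses effective library sizes, or total UMIs within clusters and cell groups. On 5 data sets simulated for the all-cell comparison (10973 to 11008 genes, 200 changed, all at 32 CPM or more), 51.4% of 2-fold and 99.8% of 4-fold changes were recovered and 7.85% of calls were false (5.73% to 10.0%). Genes at lower levels were not simulated. Intervals are 95%, exact (Clopper-Pearson, Poisson), and, like the floor of 3 counts, cover counting error only. Genes given with values in each library are those called, the 4 with the highest mean CPM and the lowest p in each role, Mki67, Cdkn1a and Cdkn1b; others are named after their values were seen. Alternatives were other scalings, DESeq2 1.42.0, other filters, thinning, cell subsets, a replicate block and leaving out libraries.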

Additional observations from a re-analysis of the deposited data

How the results depend on the processing

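Of the 40 genes 1 was called in the all-cell comparison. The count was 2 with scaling by library size alone, with DESeq2 and with no cell filter, 5 with no gene filter, 0 with cells thinned to 1000 UMIs, and 2 to 8 without a library. Chosen after seeing the data, leaving out the Spp1-led cluster or the 15 mitotic-profile cells gave 0, where 248 and 293 of all genes were called. In both of these fits, with thinning and with the common limit on genes per cell, Mki67 did not pass the filter on low counts. Replicate numbers did not pair the libraries (correlation of deviations -0.038), and a replicate block gave 2. In microglia-like cells 1 was called, 0 at clustering resolution 2 and 1 to 4 without a library. Of the other cell cycle lists 1 gene was called, 2 with library size scaling (the second, Cdca7, downward), 3 with no gene filter and 1 to 8 without a library. Over all genes the 302 calls became 918 with no gene filter, 501 with the common limit on genes per cell, 184 with thinning and 265 to 1341 without a library. Without week 5 replicate 2 the 8 calls of the 40 were Mki67, Cdk1, Ube2c, Ccnd1, Cdkn1a, Stmn1, H2afz and Hmgb2; a lone library is then assumed to vary like the other pair. Cdkn1a, not called in the all-cell comparison, was called in 9 of 15 alternatives. The difference in the share of cells with 3 of 40 genes, 11.2 percentage points, was -4.92 to 27.3 without a library, and -0.00298 without week 5 replicate 1. Library size scaling moved the all-gene median log2 fold change to -0.24 and that of the 29 to 0.28, and turned Cdkn1b to -0.16 and Tubb5 to -0.0071; thinning turned Tyms to -0.036. Without a library, log2 fold changes ranged from -0.078 to 1.01 for Mcm3, -0.022 to 0.50 for Tyms, -0.085 to 0.60 for Cdk6, -0.048 to 0.16 for Cdkn1b and -0.13 to 1.20 for Stmn1. The cause of these changes was not tested. The planned comparison of mitotic-profile cells with other cells could not be fitted, since 1 library alone held 10 or more of them, so its 5 alternatives were not run. Depth limits the counts: 11 genes were too low to test.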
